A study of Mus musculus with 14 samples.

Results

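The miR-146 and miR-155 microRNAs (miRNAs) were examined in small extracellular vesicles (membrane-bound particles shed by cells) from mouse neutrophils. The members were the names mmu-miR-146a-5p, mmu-miR-146a-3p, mmu-miR-146b-5p, mmu-miR-146b-3p, mmu-miR-155-5p and mmu-miR-155-3p. They were taken by name from a table of 1695 mature mouse miRNAs, in which 5 of the 6 had a column. mmu-miR-155-3p was not analysed here.

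The neutrophils were bone marrow cells positive for Ly6G, a surface marker of mouse neutrophils, from female BALB/c mice of wild type (WT), and were kept with treatment for 48 h. One group of 7 libraries came from cells given DMSO, the solvent. The other group of 7 came from cells given 10 µM 27HC (27-hydroxycholesterol), a cholesterol metabolite. No genetic alteration or other agent is labelled in either group, and the labels do not say how many animals stand behind a library, so p-values measure the spread between these libraries. The study concerns the effect of such vesicles on breast cancer cells, and the comparison asks how 27HC changes their miRNA content.

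miRNAs guide Argonaute proteins to messenger RNAs mainly through the seed, bases 2 to 8 of the mature strand. In myeloid cells, NF-κB signalling from Toll-like receptors induces the transcription of Mir146 and of the miR-155 host gene. miR-146a then damps that signalling by repressing its adaptors IRAK1 and TRAF6. miR-155 is known for the opposite effect, because it represses the inhibitors SOCS1 and SHIP1 (gene Inpp5d).

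The mature strands on which the results turn are shown 5′ to 3′ from RefSeq (GRCm38.p6), with the seed in capitals, to show which members share it:
miR-146a-5p: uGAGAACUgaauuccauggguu
miR-146b-5p: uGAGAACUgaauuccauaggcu
miR-146b-3p: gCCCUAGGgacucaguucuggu
miR-155-5p: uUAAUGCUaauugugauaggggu

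miR-146a-5p and miR-146b-5p carry the same seed, and no other mature mouse name in the RefSeq table has it. The seed of miR-155-5p is likewise carried by no other name there. The paralogs agree in their first 17 bases and differ at 2 of 22 positions, G18A and U21C, counted from the 5′ end with the miR-146a-5p base first. The rule by which the authors assigned reads that fit both is not given in the sources used here, so the division of counts between them is uncertain. The passenger arms miR-146a-3p and miR-146b-3p have the same base at only 4 of 22 positions.

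The 3 hairpins lie on different chromosomes. In the RefSeq and GENCODE M21 annotations of GRCm38, Mir146 is on the minus strand of chromosome 11, from 43374397 to 43374461, in no annotated host gene. Mir146b is on the plus strand of chromosome 19, from 46342762 to 46342870, in an intron of the protein-coding gene Mfsd13a. Mir155 is on the plus strand of chromosome 16, from 84714140 to 84714204, in exon 2 of the non-coding host gene Mir155hg. The submitters' processing notes name GRCm39, while the counts are by name only, so the coordinates describe the annotation alone.

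The known target sites show how the seeds are read. The reverse complement of the miR-146 seed, AGTTCTC, was searched on the sense strand of the longest annotated 3′ UTR of each gene. AGCATTA, the reverse complement of the miR-155 seed, was searched in the same way. The first match in each of 4 known targets is printed with 10 bases before and 5 after, and with the match in capitals:
Irak1, from base 40 of the UTR: cagaggtcaaAGTTCTCatgct
Traf6, from base 460 of the UTR: tctggtgttgAGTTCTCattta
Socs1, from base 20 of the UTR: gctgtgccgcAGCATTAagtgg
Inpp5d, from base 515 of the UTR: gtttttaaaaAGCATTAaagaa

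Irak1 held 2 matches and Traf6 4, and Socs1 and Inpp5d held 1 each. Among 21020 genes with a 3′ UTR, 11.2% held AGTTCTC and 8.29% held AGCATTA. A match is a description of sequence, and no messenger RNA was measured in these data.

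Library totals ran from 112914 to 871189 counts in the DMSO group and from 119852 to 405902 in the 27HC group. Levels are given as counts per 1000000 (CPM) with TMM library sizes, which put libraries of different depth and composition on one scale. On that scale 3 counts, the limit that a count of 0 allows, equal from 4.09 to 24.6 CPM across the libraries. Replicates 1 to 4 and replicates 5 to 7 were also compared separately. This division was taken from earlier results of these data and the labels give no reason for it. The miRNAs listed for neutrophils and myeloid cells were abundant, and miR-223-3p, the most typical of them, averaged 142783 ± 40458 CPM with DMSO and 119314 ± 11586 CPM with 27HC (SD, n = 7).

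miR-146a-5p, the feedback brake on Toll-like receptor signalling, was abundant and fell with 27HC. miR-155-5p, its pro-inflammatory counterpart, was scarce and also fell, to 2 to 10 counts in each 27HC library, which is near the limit of detection. miR-146b-5p, which has the seed of miR-146a-5p, differed less between the groups and was not called. The 2 passenger arms were at or near the limit of detection.

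**Figure D1:**
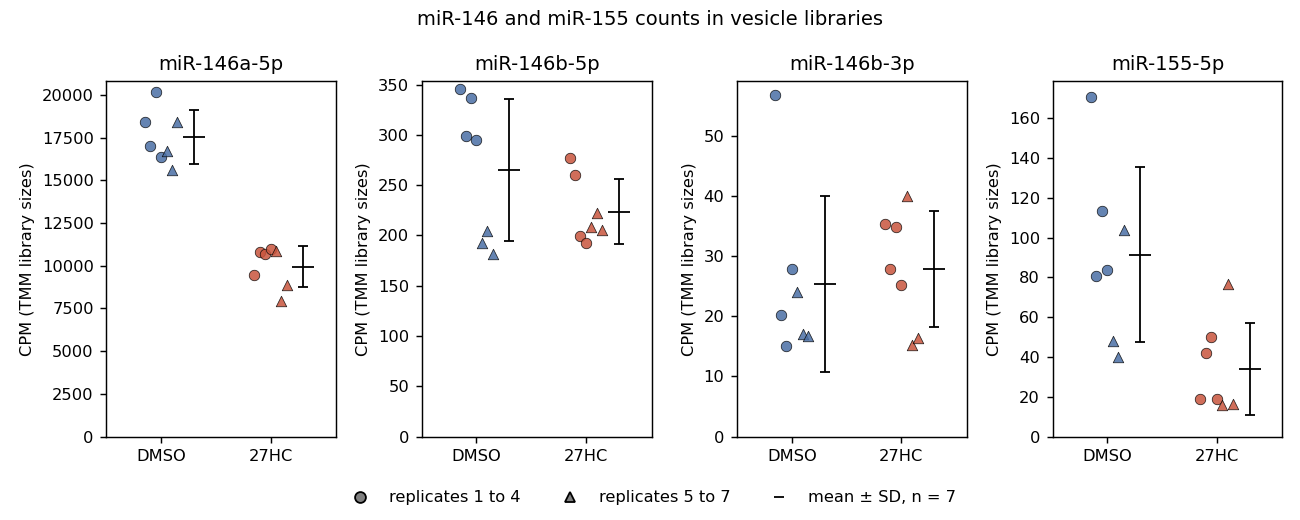
CPM of 4 members in each library (vertical axes, each from 0) by treatment, with circles for replicates 1 to 4, triangles for replicates 5 to 7, and bars for the mean ± SD of 7 libraries. The groups do not overlap for miR-146a-5p, whose lowest DMSO library stood at 15638 CPM and whose highest 27HC library stood at 10995 CPM, while they overlap for the other members.

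miR-146a-5p ran from 15638 CPM through a median of 17014 CPM to 20208 CPM in DMSO libraries. In 27HC libraries it ran from 7918 CPM through a median of 10699 CPM to 10995 CPM. The highest 27HC library was thus below the lowest DMSO library, and the groups did not overlap. These are relative levels, and fewer vesicles that carry a miRNA cannot be told apart from fewer copies in each.

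The group means of miR-146a-5p were 17547 ± 1566 CPM and 9952 ± 1203 CPM (SD, n = 7). In edgeR's quasi-likelihood test over the 239 names kept by the low-count filter, the log2 fold change of miR-146a-5p was −0.82 (SE 0.093) at an adjusted p of 5.38e-06, which is 0.567 times the DMSO level. It ranked as the 7th most abundant of the 1695 names in DMSO and as the 13th in 27HC libraries. Its share of all counts was 1.76 ± 0.225% in DMSO and 0.978 ± 0.106% in 27HC libraries (SD, n = 7).

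The fall of miR-146a-5p was found in both sets of replicates. Replicates 1 to 4 alone gave a log2 fold change of −0.71 with SE 0.091 (edgeR adjusted p 0.000217). Replicates 5 to 7 alone gave −0.87 with SE 0.15 (edgeR adjusted p 0.00722). In those fits 17.4% and 6.06% of the names tested were called. As the groups did not overlap, any numbering puts the 27HC library below the DMSO library in 7 of 7 numbers. With the numbers as labelled, the log2 ratios of 27HC to DMSO ran from −1.05 to −0.57. For miR-155-5p the 27HC library was below the DMSO library in 6 of 7 numbers, with log2 ratios from −3.17 to 0.94. For miR-146b-5p it held in 4 of 7, with log2 ratios from −0.75 to 0.18.

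miR-146b-5p was far scarcer than miR-146a-5p. It ran from 181 CPM through a median of 295 CPM to 345 CPM without 27HC. With 27HC it ran from 193 CPM through a median of 208 CPM to 277 CPM. Every 27HC library lay within the DMSO range, so the groups overlapped in full.

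The means of miR-146b-5p were 265 ± 70.2 CPM and 223.5 ± 32.2 CPM (SD, n = 7). In log2 terms it stood at −0.25 (SE 0.19) relative to DMSO. The edgeR adjusted p was 0.495, which does not show that the level was unaffected.

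The spread of miR-146b-5p followed the sets of replicates in DMSO libraries, while in 27HC libraries the sets overlapped. Among DMSO libraries, replicates 1 to 4 stood between 295 and 345 CPM and replicates 5 to 7 between 181 and 205 CPM. In 27HC libraries the sets stood between 193 and 277 CPM and between 205 and 222 CPM. In replicates 1 to 4 all 4 libraries with 27HC were under the lowest DMSO library, while in replicates 5 to 7 all 3 were above the highest. So few libraries separate easily, and the share of all names that separate within a set was not counted. No reversal is read from this.

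The log2 fold changes of miR-146b-5p in the sets were −0.38 (SE 0.20, edgeR adjusted p 0.21) and 0.15 (SE 0.24, edgeR adjusted p 0.839). The difference between them, tested by an interaction term in edgeR, was 0.59 (SE 0.29), with an unadjusted p of 0.0607 and an adjusted p of 0.479. That term called 0 of all names tested, 24 of which had an unadjusted p under 0.05. For miR-146a-5p the same term was −0.098 (SE 0.17, edgeR adjusted p 0.863).

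The paralogs differed in their response. A ratio of counts inside a library needs no scaling between libraries. DMSO libraries held from 53.4 to 101.8 counts of miR-146a-5p for each count of miR-146b-5p, and 27HC libraries from 34.3 to 57.0. The 27HC libraries were thus shifted towards miR-146b-5p, and 6 of the 7 were below every DMSO library on the log2 scale with 0.5 added to each count.

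The mean log2 ratio of miR-146a-5p to miR-146b-5p was 6.08 ± 0.359 in DMSO and 5.46 ± 0.289 in 27HC libraries (SD, n = 7). They differed by −0.62 (SE 0.17), and the two-sided exact permutation test gave p 0.00291, or 0.00486 after adjustment over the 5 ratios tested. Replicates 1 to 4 alone gave −0.31 (exact permutation p 0.143). Replicates 5 to 7 alone gave −1.03 (exact permutation p 0.1, the smallest that 3 against 3 can give). The test over all libraries takes no account of the sets, by which the DMSO ratios split.

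Of the counts with the shared seed, miR-146b-5p made up 1.48 ± 0.344% with DMSO and 2.23 ± 0.44% with 27HC (SD, n = 7). The pool of that seed therefore followed miR-146a-5p. Summed into 1 name, the paralogs were at −0.83 in log2 terms (SE 0.093), with an edgeR adjusted p of 4.68e-06. With so small a part from miR-146b-5p, this repeats the result of miR-146a-5p and is no further evidence. That fit was scaled anew, so its value is not strictly on the scale of the separate fits.

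miR-155-5p was scarce, ranking 179th of the names in DMSO and 262nd in 27HC libraries. In DMSO libraries it ran from 39.8 CPM through a median of 83.5 CPM to 171 CPM, from 6 to 83 counts. In 27HC libraries it ran from 16.03 CPM through a median of 19.0 CPM to 76.5 CPM, from 2 to 10 counts. The groups overlapped, since 27HC replicates 2, 3 and 6 lay above DMSO replicate 6, while the other 4 were below every DMSO library. Of these, 27HC replicates 5 and 7 had 2 counts each, under the level of 3 counts. The 95% Poisson intervals of 27HC replicates 4, 5 and 7 reach 41.3, 57.9 and 59.2 CPM. Counting error alone thus leaves their place below DMSO replicate 6, at 39.8 CPM, unresolved.

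Over the whole groups miR-155-5p had 226 counts in DMSO and 47 in 27HC libraries. The means were 91.4 ± 44.0 CPM and 34.1 ± 23.1 CPM (SD, n = 7). The fitted level with 27HC was 0.358 times that with DMSO, a log2 fold change of −1.48 with SE 0.40 and an edgeR adjusted p of 0.0216. In the libraries with 2 counts the exact 95% Poisson interval spans 0.242 to 7.22 counts, which covers counting error only.

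In replicates 1 to 4 the groups of miR-155-5p did not overlap, with DMSO libraries at 80.7 to 171 CPM and 27HC libraries at 18.9 to 49.9 CPM. How many other names separate within this set was not counted, so the separation is not read as particular to miR-155-5p. The fit to replicates 1 to 4 put miR-155-5p at −1.79 in log2 terms (SE 0.40, edgeR adjusted p 0.0103). In replicates 5 to 7, where it did not pass the filter, DMSO libraries stood at 39.8 to 104 CPM and 27HC libraries at 16.03 to 76.5 CPM, from 44 and 14 counts in all. The interaction of 27HC with the set was 0.99 (SE 0.81, edgeR adjusted p 0.607).

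The call for miR-155-5p rested on single libraries. It was lost without DMSO replicate 1, which gave −1.20 in log2 terms and an edgeR adjusted p of 0.0643. It was also lost without 27HC replicates 1, 4, 5 or 7, with edgeR adjusted p-values of 0.0609, 0.0658, 0.0629 and 0.0566. It was kept in the other 9 fits that left out a library, with adjusted p-values from 0.00814 to 0.0442.

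**Figure D2:**
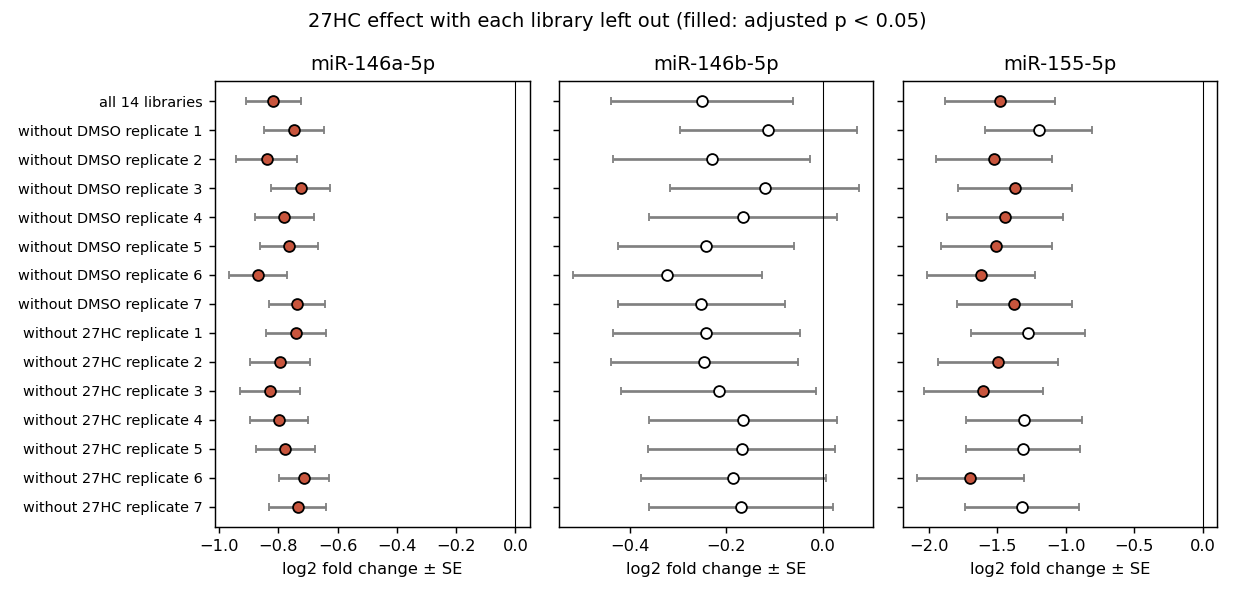
Log2 fold change of 27HC against DMSO with its SE (horizontal axes) for the 3 members that could be tested, with all 14 libraries and with each library left out in turn (rows). Filled points have an edgeR adjusted p under 0.05, which holds in all 15 fits for miR-146a-5p, in 0 for miR-146b-5p, and in 10 for miR-155-5p.

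The fall of miR-155-5p was nominally larger than that of miR-146a-5p, but the difference was not resolved. DMSO libraries held from 108 to 393 counts of miR-146a-5p for each count of miR-155-5p, and 27HC libraries from 103.5 to 678. The mean log2 ratio was 7.68 ± 0.593 in DMSO and 8.29 ± 0.920 in 27HC libraries (SD, n = 7). Exact permutation gave p 0.168 for this difference of 0.61 (SE 0.41), also when adjusted. Replicates 1 to 4 alone gave 1.02 (exact permutation p 0.0571), and replicates 5 to 7 alone gave 0.059 (exact permutation p 1.0). Without 27HC replicate 6, the library with the lowest ratio, it was 0.88 (adjusted exact permutation p 0.0256).

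Both falls were also seen against miR-16-5p, an abundant miRNA of blood cells. Any change of miR-16-5p itself with 27HC, not given here, is part of these ratios. The log2 ratio of miR-146a-5p to miR-16-5p differed by −0.93 (mean −4.46 ± 0.307 in DMSO, −5.39 ± 0.179 in 27HC libraries, SD, n = 7). No 27HC library reached the lowest DMSO library, and exact permutation gave p 0.000583, the smallest these groups can give (adjusted 0.00146). The differences were −0.76 in replicates 1 to 4 and −1.16 in replicates 5 to 7. Their exact permutation p-values, 0.0286 and 0.1, are the smallest possible. The lack of overlap fixes them, so they add no further evidence.

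miR-155-5p stood at a geometric mean of 221 counts per 1000000 counts of miR-16-5p in DMSO and 76.2 in 27HC libraries. In log2 terms this is −1.53 (SE 0.40), for which exact permutation gave p 0.00466 (adjusted 0.00583), and only 27HC replicate 6 was above the lowest DMSO library. Replicates 1 to 4 alone gave −1.77 (exact permutation p 0.0286), and replicates 5 to 7 alone gave −1.22 (exact permutation p 0.3).

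Against miR-223-3p, the miRNA most typical of neutrophils, miR-146a-5p was lower too. The log2 ratio was −2.97 ± 0.468 in DMSO and −3.59 ± 0.144 in 27HC libraries (SD, n = 7). The groups only just did not overlap, with the lowest DMSO library at −3.404 and the highest 27HC library at −3.410. For this difference of −0.62, exact permutation gave p 0.000583 (adjusted 0.00146). Replicates 1 to 4 alone gave −0.28 (exact permutation p 0.0286), and replicates 5 to 7 alone gave −1.06 (exact permutation p 0.1). These p-values are the smallest possible and the lack of overlap fixes them, so those of the sets add no further evidence. Without DMSO replicate 7, which stood at −2.01, the difference was −0.46.

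**Figure D3:**
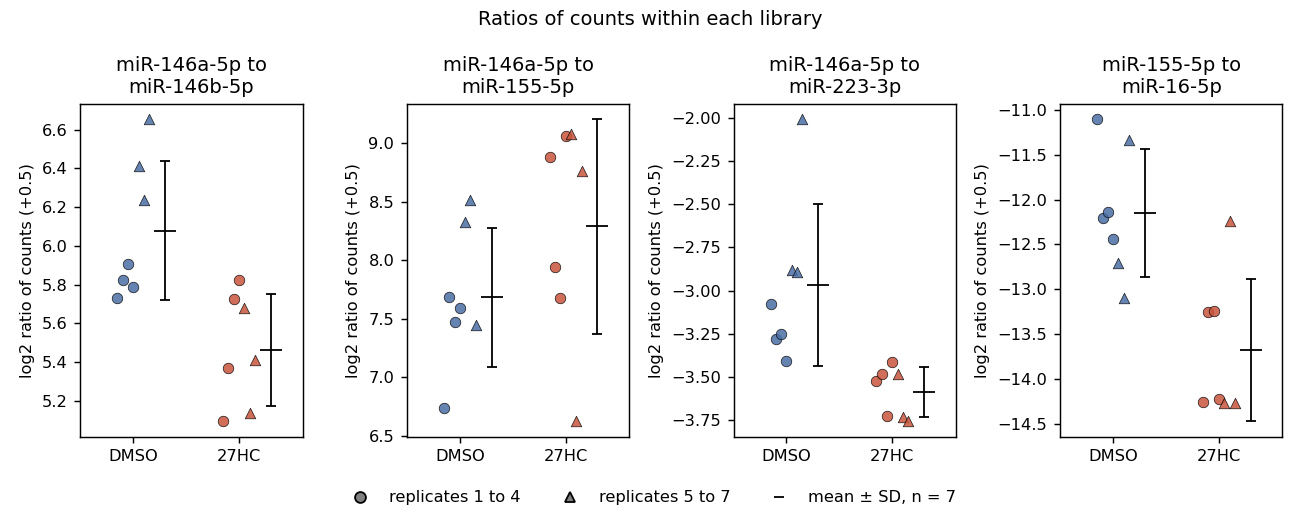
Log2 ratios of counts within each library, with 0.5 added to each count (vertical axes, which do not start at 0), by treatment, with circles for replicates 1 to 4, triangles for replicates 5 to 7, and bars for the mean ± SD of 7 libraries. The ratio of miR-146a-5p to miR-146b-5p is lower with 27HC by 0.62 on average, most so in replicates 5 to 7, while that of miR-146a-5p to miR-155-5p overlaps widely.

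The passenger arms were rare. miR-146b-3p had from 2 to 15 counts in each library and did not pass the filter. It ran from 14.996 CPM through a median of 20.2 CPM to 56.9 CPM in DMSO libraries and from 15.3 CPM through a median of 27.8 CPM to 40.1 CPM in 27HC libraries. The groups overlapped, and many of these values lie near the level of 3 counts.

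miR-146b-3p made up 8.66 ± 3.21% of the counts of the Mir146b hairpin's arms in DMSO and 11.1 ± 3.59% in 27HC libraries (SD, n = 7). miR-146a-3p had 1 count in all, in DMSO replicate 6, against 40953 counts of miR-146a-5p in the DMSO group. It had 0 counts in the 27HC group, which allows from 7.10 CPM in the deepest to 24.6 CPM in the shallowest of those libraries by TMM size. No test was made on either arm in the filtered fit.

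Of the 3 members that could be tested, 2 were called lower and 0 higher. Over all 239 names, 12.6% were called, 8.79% lower and 3.77% higher. With miR-146a-5p, 3.35% of names had every 27HC library below every DMSO library. The median log2 fold change of all names was 0.010. With upper-quartile scaling in place of TMM, 81.1% of the calls were lower, against 70.0% here, and both members kept their calls.

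**Figure D4:**
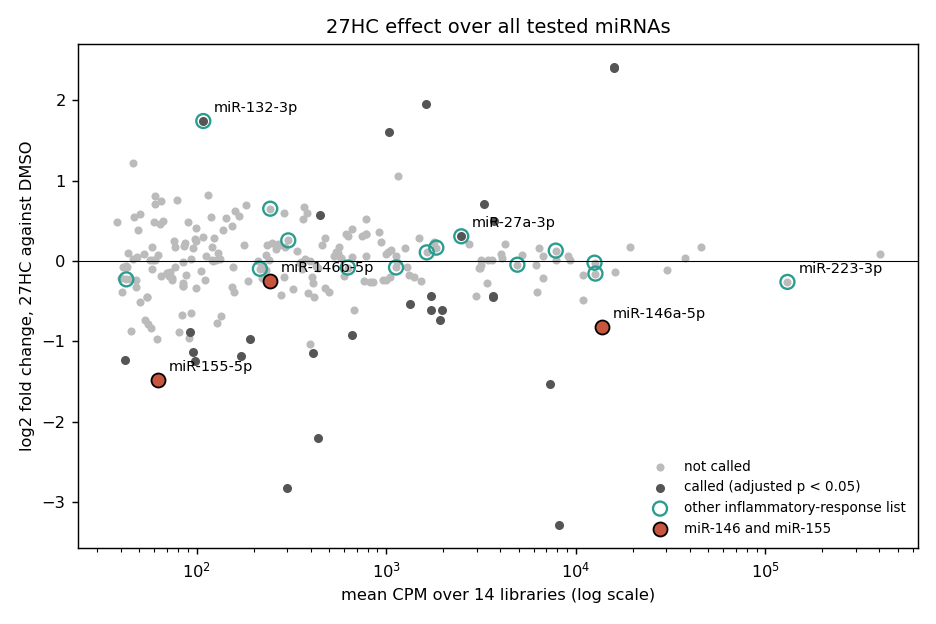
Log2 fold change of 27HC against DMSO (vertical axis) over the mean CPM of 14 libraries (horizontal log axis) for the 239 names tested. miR-146a-5p at −0.82 and miR-155-5p at −1.48 lie among the lower calls, and most of the circled names of the wider inflammatory list lie near 0.

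Other miRNAs of the inflammatory response had a median log2 fold change near 0. A list of 20 names known to be induced by or to act in Toll-like receptor and NF-κB signalling of myeloid cells was used. Of these, 15 passed the filter, with 2 called higher, 0 called lower and a median log2 fold change of −0.020, against 0.010 for all names. Over all 239 names 12.6% were called, 3.77% higher and 8.79% lower. With 15 names, and a list chosen with earlier results known, the counts of calls do not set the list apart. The higher calls were miR-132-3p, another NF-κB- and CREB-responsive miRNA, at 1.74 (SE 0.43, edgeR adjusted p 0.0122), and miR-27a-3p at 0.31 (SE 0.093, edgeR adjusted p 0.0369). The mean CPM of miR-132-3p was 50.2 ± 25.6 with DMSO and 167 ± 95.7 with 27HC (SD, n = 7).

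Among the 13 that were not called, miR-21a-5p, which is induced by Toll-like receptor signalling, was at −0.020 (SE 0.081). miR-147-3p, another Toll-like receptor-induced miRNA, was at −0.096 (SE 0.21), and miR-9-5p, which targets Nfkb1, was at 0.65 (SE 0.38). miR-125b-5p, at 0.11 (SE 0.19), and miR-223-3p, at −0.26 (SE 0.17), were also not called.

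The names most like miR-146a-5p were sought by the mean absolute difference of centred log2 CPM over the 14 libraries, among 238 other names. The nearest were miR-149-5p (0.16), miR-103-3p (0.20), let-7f-5p (0.23), miR-361-5p (0.24) and let-7j (0.24), where the median name lay at 0.50. Of these 5, all but miR-361-5p were called lower, at log2 fold changes from −0.92 to −0.44, against 8.79% of all names tested. The distance includes the difference between treatments, so it favours names that fell as miR-146a-5p did. miR-361-5p was at −0.39 (SE 0.13, edgeR adjusted p 0.0765). The paralog miR-146b-5p came 27th in that order, at 0.32.

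The names most like miR-155-5p were miR-6240 (0.48), miR-150-5p (0.52) and miR-149-5p (0.55), where the median name lay at 0.84. All 3 were called lower, at −1.14, −0.97 and −0.92, which the distance favours because it includes the difference between treatments. These distances share the libraries and their scaling, and they describe likeness of values only.

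Markers of other cells were read beside these results. The neutrophil and myeloid list held both arms of miR-223 and of miR-142, the latter known across blood cell lineages. miR-142a-3p and miR-142a-5p fell, with log2 fold changes of −1.53 and −0.74 (edgeR adjusted p 3.55e-05 and 0.0223). miR-223-3p at −0.26 and miR-223-5p at 0.17 were not called (edgeR adjusted p 0.406 and 0.388). The summed level of these 4 names ran from 83291 to 216664 CPM in DMSO and from 113054 to 149157 CPM in 27HC libraries. miR-150-5p, a marker of lymphocytes, which are known to express miR-155, was lower by a log2 fold change of −0.97 (edgeR adjusted p 0.0134), while miR-150-3p was at 1.22 (edgeR adjusted p 0.103) and not called. The summed level of both lymphoid markers ran from 181 to 398 CPM in DMSO and from 148 to 273 CPM in 27HC libraries. Neither lymphoid marker was at 0, and their part in the fall of miR-155-5p was not tested.

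The other marker lists gave 0 calls among 6 names tested. The summed level of 4 erythroid markers ran from 505 to 1062 CPM in DMSO and from 730 to 1126 CPM in 27HC libraries. That of 2 endothelial and platelet markers ran from 540 to 1042 and from 519 to 1130 CPM, and that of 5 stromal markers from 461 to 1259 and from 468 to 1291 CPM. miR-122-5p, the hepatocyte marker, ran from 2476 to 4587 CPM and from 1895 to 3672 CPM. None of the markers was at 0 in all libraries, and the part of these cells in the results was not tested.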

How the data were processed

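Small RNA was sequenced from vesicles in 7 DMSO and 7 27HC libraries, made with the QIAseq miRNA kit per the labels' protocols. The authors deposited raw counts, whole numbers per mature miRNA name and library. The submitters' processing notes name R 4.1.2, edgeR, limma and GRCm39 (mm39) with no role. The aligner, the rule for reads that fit several names and the use of molecular identifiers are not given in the sources used here, so duplicated reads may be included. All rows of the table were matched to labels. The sets of replicates 1 to 4 and 5 to 7 come from earlier results of these data.

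The members and lists were chosen with earlier results of these data known. The names described were the members, the nearest profiles (5 and 3), names sharing a seed, and listed names that were called, with others as examples.

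Counts were tested with edgeR 4.0.16 (R 4.3.3) by glmQLFit and glmQLFTest, TMM scaling, filterByExpr with a minimum count of 10 and total of 15, and Benjamini-Hochberg adjustment over all 239 names tested, which held 99.4% of counts. A call had an adjusted p under 0.05. Each standard error was the log2 fold change divided by the square root of F. Ratios had 0.5 added to each count and were compared by exact permutation over 3432 assignments of the libraries. The test was run on simulated data first. All 42 library pairs within groups differed by more than sampling noise (lowest chi-square per degree of freedom 5.57), so none was a copy. Alternatives covered scaling, filter, tool (DESeq2 1.42.0, limma-voom 3.58.1), covariates, the replicate block, sets of replicates, single libraries and summed paralogs. Of the 1695 names, 1431 matched a RefSeq mature sequence, the 6 members included.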

Additional observations from a re-analysis of the deposited data

Results flagged for a closer look

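In 4 of 22 groups of 7 libraries examined, 1 library stood far from the other 6. Chance gives about 1 in 20 for normally distributed values, which low counts are not, so no excess is read from this. The 27HC group of miR-146a-3p, at 0 in every library, could not show it. miR-146a-3p was at 5.69 CPM in DMSO replicate 6, from its only count, and at 0 in the others. miR-146b-3p was at 56.9 CPM in DMSO replicate 1, where it had 15 counts, and the next library was at 27.8 CPM. The log2 ratio of miR-146a-5p to miR-223-3p was −2.01 in DMSO replicate 7, against −2.88 in the next library, and without that library the difference between treatments was −0.46. DMSO replicate 3 held 871189 counts, against 400585 in the next DMSO library, and without it the log2 fold change of miR-146a-5p was −0.73.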

How the results depend on the processing

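miR-146a-5p kept its direction and its call under all 30 alternatives, with log2 fold changes from −0.91 to −0.71. miR-155-5p kept its call under all 14 alternatives other than leaving out a library, and without single libraries it ran from −1.70 to −1.20, with the call lost in 5 of 14. miR-146b-5p was not called under any alternative that kept it apart, changed sign in replicates 5 to 7 alone (0.15), and takes the value of miR-146a-5p when both are summed (−0.83). It was not tested with a mean of at least 100 counts, nor was miR-155-5p, and miR-155-5p was not tested in replicates 5 to 7. The number of calls ran from 21 to 34 without single libraries. It was 42 in replicates 1 to 4 alone and 12 in replicates 5 to 7 alone, and the cause was not tested. The difference in the ratio of miR-146a-5p to miR-146b-5p was nearer 0 in replicates 1 to 4 (−0.31), where it lost its call and the cause was not tested. In replicates 5 to 7, where 3 against 3 cannot pass the threshold, calls were lost for the ratios of miR-146a-5p to miR-146b-5p (−1.03), to miR-16-5p (−1.16) and to miR-223-3p (−1.06), and of miR-155-5p to miR-16-5p (−1.22). The ratio of miR-146a-5p to miR-155-5p ran from 0.45 to 0.88 without single libraries and passed the threshold only without 27HC replicate 6 (0.88). With no filter on low counts the median of all names moved by −0.20, and miR-146a-5p was at −0.91.

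The deviations of same-numbered libraries correlated over 0.1 in 6 of 7 pairs (from 0.069 to 0.60 across names), and 6 of 14 libraries correlated best with their own number. This is a hint of pairing from the data, but the labels give none and 1 pair did not pass, so the numbers were not used to pair libraries. With the replicate block edgeR called 37 names in place of 30, miR-146a-5p was at −0.82, miR-146b-5p at −0.24 and miR-155-5p at −1.52, and none of these 3 changed its call.

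Depth limits miR-155-5p, miR-146b-3p and miR-146a-3p, whose counts were as low as 2, 2 and 0.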
